A study of Mus musculus with 4 samples.

Results

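The 88 genes described here encode the proteins of the cytosolic ribosome and their close paralogs in the mouse, measured in ID8G cells and in GO2 cells. The set was chosen with earlier results of these data known, and membership in it was decided by gene name alone. A probe that was not a control was a member if its RefSeq accession belonged to a gene with a fitting symbol. Such a symbol begins with Rpl or Rps and a number, or is Rplp0, Rplp1 or Rplp2. Pseudogenes marked by -ps and the Rps6k kinases were left out. The genes are 88 of the 22907 that the array names by such an accession. They have 150 of its 56605 probes, and 145 of these, for 84 genes, were bright enough to be tested among 28370 probes in all. ID8G cells are ID8 cells that express GFP, and ID8 is a mouse ovarian cancer line that arose from ovarian surface epithelial cells in culture. GO2 cells are the same GFP-positive cells after 2 rounds of growth in C57BL/6J mice, in which cells were injected into the peritoneal cavity and CD45-negative, GFP-positive cells were sorted from omental tumors. Each line was measured as a cultured population on 2 one-color arrays. The methods name DMEM with serum, insulin, transferrin and selenite for ID8 cells, and give no separate medium for GO2 cells. Neither the labels nor the methods say that the arrays of a line came from separate cultures, so the p-values measure the spread between these arrays, which may be technical. GO2 is 1 line obtained by 1 selection, and other lines recovered from omentum were not analysed here.

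The ribosome translates mRNA into protein and is built from a small 40S subunit, which reads the mRNA, and a large 60S subunit, which joins amino acids and releases the chain through its exit tunnel. Each subunit combines ribosomal RNA with many proteins that are needed in equal numbers, and in growing cells their mRNAs are among the most abundant. Most of these mRNAs begin with a run of pyrimidines, the 5′ terminal oligopyrimidine tract, through which the mTORC1 pathway controls their translation, so that the amount of mRNA on an array does not show how much protein is made.

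Windows of 30 bases around the first listed start of 8 member genes are shown. They hold genes that differed between the lines, a paralog pair and the gene of the S6 protein. Each window is written 5′ to 3′ on the gene's strand, from 20 bases before the start to 10 bases from it, with the longest unbroken run of C or T in capitals. The sequences are from RefSeq, build GRCm38.p6.
Rps24, chr14:24490658-24490687, plus strand: acgcccccgcgctggggTCCTTCCTTgcgc
Rpl22l1, chr3:28805488-28805517, plus strand: cgtgcgtgcggcgcaagcccgTTCTCTTCC
Rpl22, chr4:152325706-152325735, plus strand: ccgaCTTCgccctgggaaaagcaatagctg
Rpl13, chr8:123102330-123102359, plus strand: gtcaCTTCCCTTTCgcctgattttgattgg
Rpl13a, chr7:45128736-45128765, minus strand: gataagaaaccctgcgacaagaCCTCCTCC
Rps3, chr7:99483700-99483729, minus strand: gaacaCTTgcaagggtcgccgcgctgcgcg
Rps23rg1, chr8:3567978-3568007, plus strand: tctctgctttgcagagagTCTTTCTCTCac
Rps6, chr4:86857358-86857387, minus strand: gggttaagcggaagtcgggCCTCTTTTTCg

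Few ribosomal protein genes differed between the lines, and their differences were small. Of the 145 member probes, 1 was higher and 11 were lower in GO2 cells at a limma adjusted p below 0.05, and 133 did not pass. Over all probes tested, 17.0% were higher and 18.9% were lower by the same rule. With an intensity trend in the fit, 42 member probes were lower and 2 higher, beside 24.1% and 21.2% of all probes. Leaving out any 1 of the 4 arrays leaves a line with 1 array, and calls were then fewer among the members and over all probes. The median log2 difference of the member probes, GO2 over ID8G, ran from -0.031 to -0.101 in these fits. No member probe reached a 2-fold difference, against 4.50% of all probes that did so upward and 3.34% downward. Differences are given throughout as log2 of GO2 over ID8G, after each array was scaled to its own 75th percentile. They ran from -0.47 to 0.90 among member probes with an SD of 0.129, whereas the SD over all probes tested was 0.730. Within 0.25 of 0 on this scale lay 135 of the 145 member probes, or 93.1%, compared with 57.8% of all probes tested. The median 95% confidence interval of a member probe reached 0.157 to each side of its difference, so smaller shifts of a single probe could mostly not be told from 0, and a probe that did not pass is not thereby shown to be unchanged.

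**Figure D1:**
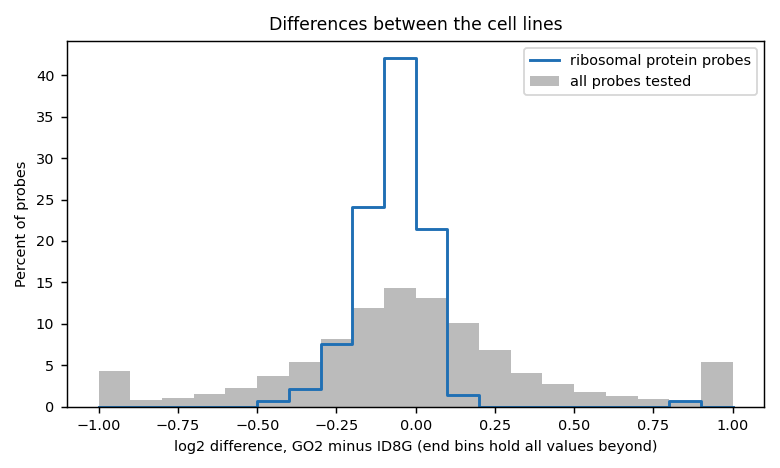
Percent of probes (y axis) in bins of the log2 difference between GO2 and ID8G cells (x axis), for all 28370 probes tested (grey bars) and the 145 ribosomal protein probes (blue line); the end bins also hold all values beyond them. The ribosomal protein probes stand close to 0, with the 1 Rps24 probe at 0.90 apart on the right.

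Most member probes lay slightly below 0, and this small shift depended on how the arrays were scaled. The median difference was -0.065 with quartiles of -0.133 and -0.006, beside -0.023 for all probes tested, but under quantile normalization it was 0.016. A negative difference was found for 111 member probes and a positive one for 34. Both GO2 arrays were below both ID8G arrays for 82 member probes, 56.6% of them, where the share of all probes was 39.6%. Both GO2 arrays were above both ID8G arrays for 11 member probes, 7.59% of them, where the share of all probes was 33.9%. As log2 of intensity over the array's 75th percentile, the member probes had median levels of 7.97 and 7.92 in ID8G cells and of 7.81 and 7.74 in GO2 cells. The levels of the lines did not overlap, yet arrays of 1 line also differed: the median member probe differed by 0.038 between the ID8G arrays and by 0.068 between the GO2 arrays. Taking each GO2 array against each ID8G array, the median member difference ran from -0.017 to -0.120.

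Ribosomal protein probes sat at the bright end of the array, and the part of brightness in the effect of scaling was not tested. Of the 145 tested member probes, 138 were in the top decile of all probes by mean level. In that decile the other probes had a median of -0.047 and the members -0.067, in the scaling to the 75th percentile. With the 7 RNA spike-ins as the scale the median of all probes moved to -0.23 and that of the members to -0.27, a distance between them of -0.043, beside -0.042 in the scaling to the 75th percentile. Spike-in scaling also moved the balance of calls over all probes, to 8.59% higher and 33.6% lower. Quantile normalization placed the members 0.035 above the median of all probes instead.

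**Figure D2:**
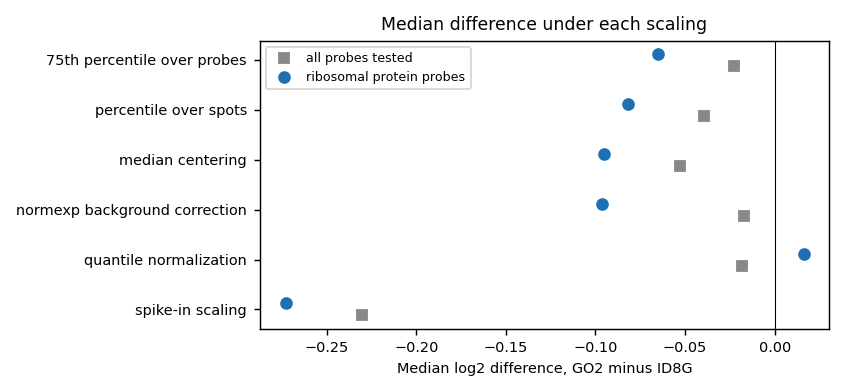
Median log2 difference between GO2 and ID8G cells (x axis) for the ribosomal protein probes (circles) and all probes tested (squares) under 6 ways of scaling the arrays (y axis). The members stayed within 0.079 of the median of all probes throughout, and under quantile normalization they changed from below it to above it. Median centering, the percentile over spots and spike-in scaling shift whole arrays, so there the distance stays nearly the same by construction.

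The proteins of both subunits had similar values, though the difference between the subunits was not tested. Of 82 probes for 60S proteins, 0 were higher and 8 lower, with a median of -0.077, and of 52 probes for 40S proteins, 1 was higher and 1 lower, with a median of -0.059; both medians were above 0 under quantile normalization, at 0.012 and 0.022. The remaining 11 probes belonged to paralogs and like genes, of which 0 were higher and 2 lower. Taking each gene by its brightest tested probe, 0 of 84 genes were higher and 6 were lower, beside 21.0% and 20.0% of the 13212 genes tested on the array. When the fit itself was made on 1 probe per gene, so that p-values were adjusted over fewer tests, 1 of the 84 genes was higher and 11 were lower, beside 25.1% and 24.1% of all genes. The higher one was Rpl37a, with an adjusted p of 0.0482, and the lower ones were the 6 above together with Rps7, Rps23, Rpl26, Rps14 and Rps15a, which were named after their values were seen where the rule did not name them. The median over these 84 genes was -0.054, beside -0.00038 over all genes. Calls with 1 array left out are not given by gene, because such fits leave a line with 1 array. Fewer probes passed in them over the whole array as well. With all probes of the array tested, dim ones included, none of the 6 genes lower by their brightest probe passed. In that fit 3.57% of all probes were higher and 3.37% lower.

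**Figure D3:**
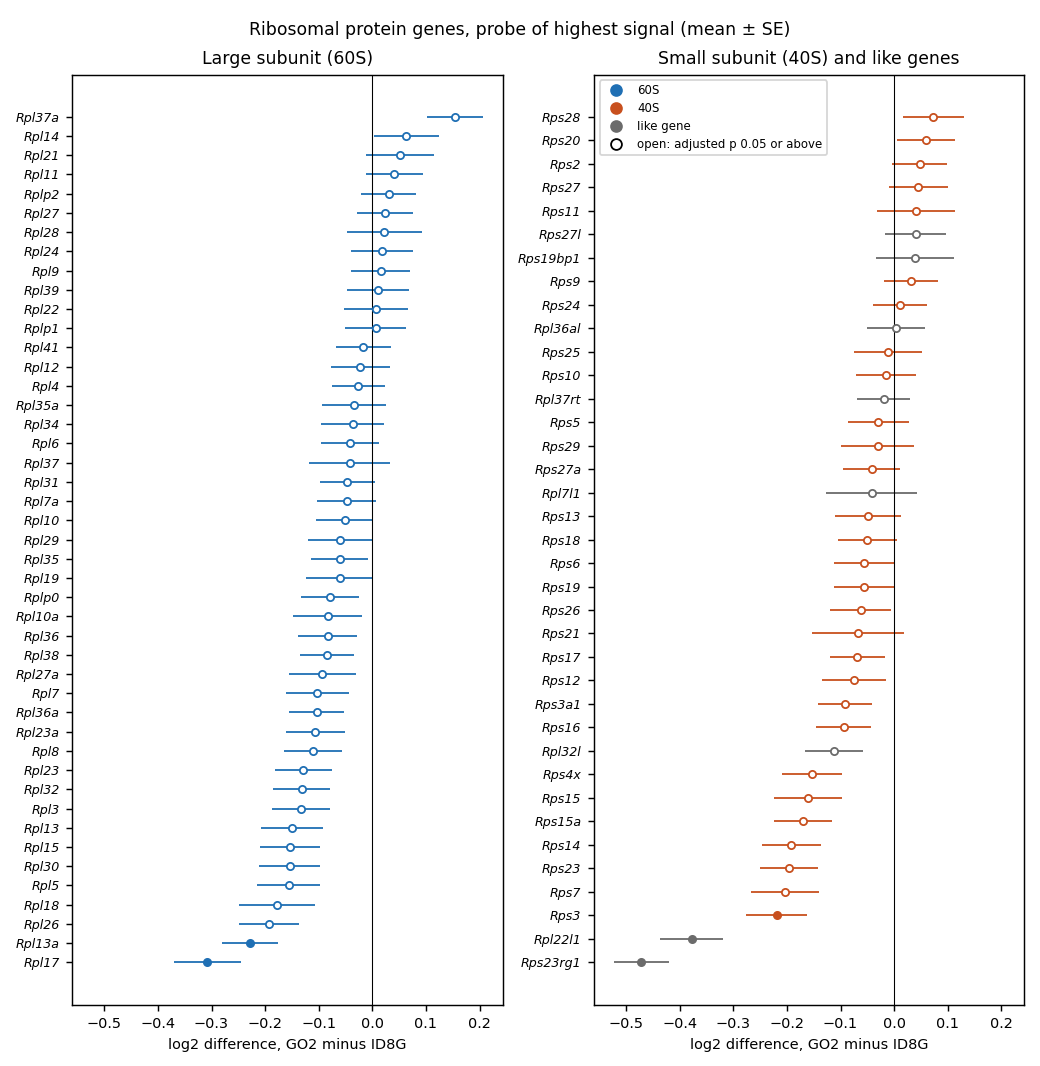
Log2 difference between GO2 and ID8G cells (x axis, point with standard error from limma, 2 arrays per line) for 82 ribosomal protein genes (y axis), each by its brightest tested probe, in blue for 60S proteins, orange for 40S proteins and grey for like genes; filled points passed an adjusted p of 0.05. The 5 filled points lie at the lower end, from -0.22 to -0.47, and the highest gene, Rpl37a, lies at 0.15.

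The largest difference in the whole set was at 1 of the 3 probes for Rps24, a protein of the 40S subunit that takes part in processing the precursor of its RNA. The probe A_55_P1955243 read 5.50 and 5.47 in ID8G cells and 6.36 and 6.40 in GO2 cells. Both GO2 arrays were higher than both ID8G arrays, and the arrays of a line lay close together. The difference was 0.897 ± 0.052 (SE), a 1.86-fold rise, with an adjusted p of 0.00118. This was the smallest adjusted p among all member probes.

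The other 2 Rps24 probes did not follow. The brightest, A_55_P2032600, read 8.83 and 8.87 in ID8G cells and 8.86 and 8.86 in GO2 cells, a difference of 0.011 ± 0.051 (SE) with overlapping groups. The third, A_55_P1993880, read 7.10 and 7.07 in ID8G cells and 7.01 and 6.92 in GO2 cells, a difference of -0.128 ± 0.059 (SE) that did not pass (adjusted p = 0.168). Set against each of these on the same array, the first probe was higher in GO2 cells by 0.886 ± 0.039 and 1.02 ± 0.061 (SE). An exact permutation test of 2 arrays against 2 gave p = 0.333 for each, the smallest value this design allows. The 3 probes are listed under 3 different RefSeq transcripts of Rps24, out of 6 in the table, and Rps24 is known to be spliced in several forms near its 3′ end. Which exons each probe covers was not analysed here. Rps24 and its probes were singled out after their values were seen.

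**Figure D4:**
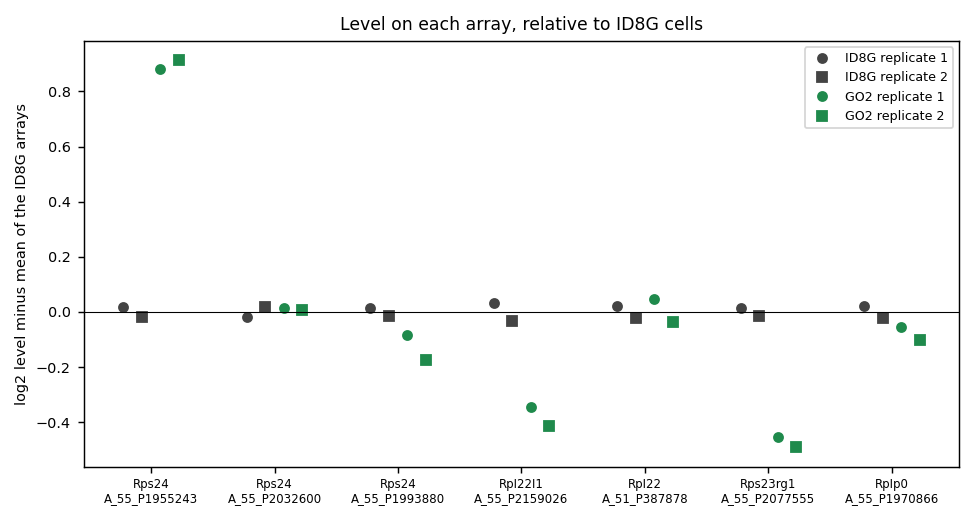
Log2 level on each array minus the mean of the ID8G arrays (y axis) for the 3 Rps24 probes and for the brightest probe of 4 other genes (x axis); dark points are ID8G arrays, green points GO2 arrays, circles replicate 1 and squares replicate 2. The first Rps24 probe rose by 0.90, the other 2 did not pass the test, and Rpl22l1 and Rps23rg1 fell while Rpl22 and Rplp0 did not pass it.

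Among the paralogs and like genes, Rpl22l1 fell. It encodes a paralog of Rpl22 that can take its place in the 60S subunit, and Rpl22 protein is known to hold down Rpl22l1 expression. Rpl22l1 read 6.98 and 6.91 in ID8G cells and 6.60 and 6.53 in GO2 cells, with no overlap. The difference was -0.378 ± 0.059 (SE), 1.30-fold lower (adjusted p = 0.0144). Rpl22 itself read 7.35 and 7.31 in ID8G cells and 7.38 and 7.29 in GO2 cells, so that its groups overlapped, and its difference was 0.0067 (95% interval -0.155 to 0.169). On the same arrays Rpl22l1 fell relative to Rpl22 by 0.38 on the log2 scale, with p = 0.333 in the exact permutation test.

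Rps23rg1, a gene that arose by retroposition from Rps23 and is not known as a part of the ribosome, had the largest decrease but disagreeing probes. Its brighter probe read 0.37 and 0.35 in ID8G cells and -0.09 and -0.13 in GO2 cells, a difference of -0.472 ± 0.052 (SE) with an adjusted p of 0.00597. The dimmer probe read -2.47 and -2.76 in ID8G cells and -2.45 and -2.47 in GO2 cells, and its difference of 0.16 did not pass. Rps23, the 40S protein from which it derives, had a difference of -0.20 that also missed the threshold (adjusted p = 0.0574).

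The other 6 like genes that were tested did not pass. Rps27l, a p53-inducible paralog of Rps27, had a difference of 0.040 (95% interval -0.115 to 0.196). Rpl36al, which encodes a near-identical copy of Rpl36a, had 0.0037, and Rps19bp1, which encodes a binding partner of Rps19, had 0.039. Rpl37rt and Rpl32l, whose names mark them as copies of Rpl37 and Rpl32, had -0.019 and -0.112. Their mean levels in ID8G cells were 9.38 and 8.14, while the 1 tested probe of Rpl37 read -1.13. Whether the probes of these copies also read the mRNA of Rpl37 and Rpl32 was not tested. Rpl7l1, known for a role in making the 60S subunit, had -0.042.

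A group of 4 like genes stayed dim on every array. Rpl3l, the paralog of striated muscle, read between -5.72 and -6.00, and Rpl10l and Rpl39l, the paralogs of the testis, read between -5.81 and -6.10. Rps4l, listed as a transcribed pseudogene, read -5.43 and -5.44 in ID8G cells and -5.01 and -4.98 in GO2 cells. Their probes were well above background on 0 of 4 arrays, so these readings are background and were not tested. The fifth probe left out was 1 of 3 for Rps15a, above background on 2 arrays, and the other 2 Rps15a probes were tested.

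Within the 60S subunit, Rpl17, at the rim of the exit tunnel, fell at all 3 of its probes, by 0.26 to 0.31 on the log2 scale. Its brightest probe read 7.21 and 7.18 in ID8G cells and 6.94 and 6.83 in GO2 cells, and its adjusted p was 0.0269. Rpl13a, a common reference gene that also takes part in repressing translation of some inflammatory mRNAs, read 8.05 and 8.01 in ID8G cells and 7.81 and 7.78 in GO2 cells. It fell by 0.228 ± 0.052 (SE) with an adjusted p of 0.0359, but under quantile normalization its difference was -0.106 and did not pass.

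For Rpl13 and Rpl3 the call depended on the probe. Rpl13, a 60S protein named after its values were seen, had differences of -0.29, -0.21 and -0.15 at its 3 probes, of which the first and the second passed and the brightest did not (adjusted p = 0.119). Rpl3, which reaches toward the peptidyl transferase centre where peptide bonds form, had -0.26, -0.19 and -0.13, of which the dimmest probe alone passed (adjusted p = 0.0473). For 46 genes with several tested probes, the probes of a gene differed by a median of 0.062, and by over 0.25 in 2 genes, Rps24 and Rps23rg1. In 10 genes the probes had both signs. In 9 genes at least 1 probe passed, and in 5 of these every tested probe did.

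The remaining functional sites of the 60S subunit had no gene that passed. Of the 4 proteins of the stalk and GTPase centre, which recruit the elongation factors, Rplp0 had a difference of -0.079, Rplp1 0.0062, Rplp2 0.030 and Rpl12 -0.023. Rpl5 and Rpl11, which carry the 5S RNA and can bind Mdm2, had -0.156 and 0.041, and Rpl5 missed the threshold with an adjusted p of 0.111. Beside Rpl3 at the peptidyl transferase centre, Rpl8 had -0.111 and Rpl10 had -0.052. Along the exit tunnel and its rim 1 of 9 genes, Rpl17, was lower, where 7.14% of the 84 member genes and 20.0% of all genes were. The other 8 ran from -0.19 for Rpl26, a protein also known for binding p53 mRNA (adjusted p = 0.0624), to 0.011 for Rpl39, with Rpl23a at -0.106, Rpl19 and Rpl35 at -0.061, Rpl31 at -0.046, Rpl4 at -0.026 and Rpl22 as given above.

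In the 40S subunit, in the fit over all probes, the gene lower by its brightest probe was Rps3, at the mRNA entry site and also known for roles in DNA repair. It read 7.92 and 7.89 in ID8G cells and 7.72 and 7.65 in GO2 cells, with no overlap. Its difference was -0.219 ± 0.057 (SE), close to the threshold with an adjusted p of 0.0484, and under quantile normalization it was -0.064 and did not pass. Of the other proteins of the entry site Rps2 had 0.047 and Rps9 had 0.032, and neither passed. At the exit site Rps14 had -0.192, Rps26 -0.062 and Rps28 0.073, and in the beak Rps10 had -0.015, Rps12 -0.075 and Rps27a -0.042, none of which passed. Rps6, the substrate of the S6 kinases, read 7.97 and 7.95 in ID8G cells and 7.94 and 7.87 in GO2 cells at its brighter probe, a difference of -0.056 ± 0.056 (SE). Rps18, often used as a reference gene, had -0.050 at its brightest probe and -0.175 and -0.233 at the other 2, none of which passed.

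Genes on the X chromosome and genes of a human disease of the ribosome were not called either. Of the 4 X-linked members, Rps4x had -0.154, Rpl36a -0.104 and Rpl10 -0.052, and Rpl39 had the value given above, with 0 called. Of 9 genes in which mutations are known to cause Diamond-Blackfan anaemia, a failure of red cell production, 0 were called by their brightest probe, and their median was -0.056. This list includes Rps24, by the probe that did not pass. By the same measure 7.14% of the 84 member genes were lower and 0 were higher. Over all genes 20.0% were lower and 21.0% higher. At the member share, 0 called in lists of 4 and 9 says little about these genes. At the upper end of all members stood Rpl37a, named after its values were seen. It read 8.95 and 8.91 in ID8G cells and 9.10 and 9.07 in GO2 cells, a difference of 0.15 that missed the threshold (adjusted p = 0.0876).

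Pyrimidine runs near the start were common among the members and the median difference was alike with and without them. A listed start was found for 67 of the 88 member genes, of which 64 were tested. In the 30 bases shown above, read on the gene's strand only, 38 of these 64 genes had an unbroken run of 6 or more letters that were each C or T, or 59.4%. Of the 27025 genes in the promoter table, 30.3% had such a run in the same window. The members with a run had a median difference of -0.049 (quartiles -0.140 and 0.0054), and the 26 without one had -0.050 (quartiles -0.094 and 0.0060). Where several starts were listed for a gene, the first alone was used, as for Rpl22 and Rps24 with 2 starts each. In these windows Rpl22 and Rps3, of the genes printed above, were without such a run. So were Rpl37a and Rplp0, whose windows are not printed. A listed start need not be the one used in these cells, and a window without a run says only that these letters are not in it.

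Member values ran in part with those of the other genes on their chromosomes. On chromosome 8, where the 704 other genes tested had a median of -0.15, Rpl13 had -0.15 by its brightest probe and Rps23rg1 had -0.47. On chromosome 18, Rpl17 and Rps14 had a median of -0.25, beside -0.077 for its other genes. Rps23 on chromosome 13 had -0.196 beside -0.117, and Rpl32 on chromosome 6 had -0.132 beside -0.137. Where the other genes of a chromosome had a positive median, the median of its members was lower. It was -0.030 beside 0.095 on chromosome 5, -0.054 beside 0.063 on chromosome 2 and -0.046 beside 0.046 on chromosome 1. On chromosome 4 it was 0.021 beside 0.130. Over the 19 chromosomes with a tested member, the median of the members and that of the other genes correlated with a Pearson r of 0.76 and a Spearman rho of 0.67. Without chromosome 8 the Pearson r was 0.71. Over single member genes the relation was weaker, with r of 0.45 over 84 genes and 0.31 over the 81 that are not on chromosome 8. These values describe the same 4 arrays and are not a test, and the number of copies of each chromosome was not measured here.

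**Figure D5:**
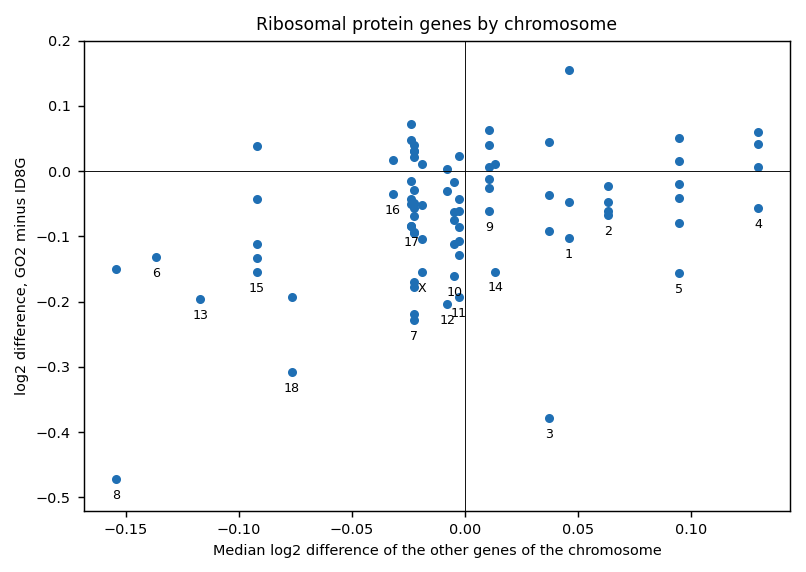
Log2 difference between GO2 and ID8G cells of 82 ribosomal protein genes (y axis, each gene by its brightest tested probe) against the median of the other genes tested on the same chromosome (x axis); the label under each column of points is the chromosome. Rps23rg1 on chromosome 8 is the lowest point, at -0.47, and Rpl37a on chromosome 1 the highest, at 0.15.

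Outside the members, ribosomal proteins whose symbols do not match the naming rule had small differences as well. Of the 4 on the list, 0 were called. Rpsa, a 40S protein also known as the laminin receptor, had -0.068, Fau, which encodes a ubiquitin-like fusion with a 40S protein, had -0.052, and Rack1, a signalling scaffold on the 40S subunit, had -0.041. The mitochondrial ribosome, which translates the mitochondrial genome, had 78 protein genes tested, of which 4 (5.13%) were higher and 11 (14.1%) lower, beside 21.0% and 20.0% of all genes, with a median of -0.024. Mrpl34 had the largest decrease, -0.53, followed by Mrpl38 with -0.51 and Mrps33 with -0.42, although a second Mrps33 probe had -0.083.

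Genes of factors that work with the ribosome are set beside the 21.0% higher and 20.0% lower of all genes. Of 37 translation initiation genes, 2 (5.41%) were higher and 0 lower, namely Eif5b with 0.38, which joins the subunits, and Eif4e2 with 0.25, a cap-binding protein. Of 10 elongation genes, Eef2k, the kinase that inhibits elongation factor Eef2, was higher with 0.79, and Eef1e1, a part of the multi-synthetase complex, was lower with -0.46. Of 75 ribosome biogenesis genes, 5 (6.67%) were higher and 4 (5.33%) lower, with a median of -0.013. The largest of these were Nol6 with 0.60 and Npm3 with 0.49, both nucleolar proteins, and Nob1 with -0.37, the nuclease that completes 18S RNA. Of 15 genes of RNA polymerase I and its factors, which make the ribosomal RNA precursor, 3 (20.0%) were higher and 2 (13.3%) lower, shares near those of all genes. Polr1d had -0.32, with another probe at 0.047, Polr1a, the largest subunit, had -0.30, and Taf1b had 0.27, with another probe at -0.50.

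The list of mTORC1 and S6 kinase genes was called in 36.4% of cases, 4 higher and 4 lower of 22, where 41.0% of all genes were called. This list also holds the Rps6ka genes, and which of its products act on the ribosomal protein mRNAs was not tested. Deptor, which inhibits mTOR, rose from -0.56 and -0.65 in ID8G cells to 0.58 and 0.59 in GO2 cells, a difference of 1.19 ± 0.060 (SE) with an adjusted p of 0.000851. Rps6ka4, a stress-activated kinase and 1 of the Rps6ka genes, had 0.54. Eif4ebp1, the translation repressor that mTORC1 inactivates, fell from 5.83 and 5.86 to 5.40 and 5.32, a difference of -0.485 ± 0.058 (SE). Whether the activity of the pathway differed was not measured.

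The labelled cell type was checked against marker genes. Of 11 markers of ovarian surface and mesothelial cells, 9 were above background on every array, while Epcam and Krt7 were on none. Their summed level was 9.39 and 9.38 in ID8G cells and 8.58 and 8.59 in GO2 cells, and of the 9, 1 was higher and 4 were lower. Krt19 fell by 1.65 on the log2 scale, with Msln, Krt18 and Krt8 also lower, Upk3b rose by 1.08, and Cdh1, Wt1, Lrrn4 and Upk1b did not pass. Ptprc, which encodes CD45, was not above background on any array, nor were Adgre1 and Lyz2 of the macrophage list, of which 5 of 11 were above background on the ID8G arrays and 4 on the GO2 arrays, with summed levels from 4.45 to 4.66. The lymphocyte list had 2 of 8 markers above background on every array, the endothelial list 1 of 6 and the adipocyte list 2 or 3 of 6, with summed levels of 2.26 to 2.36, -2.52 to -2.16 and 1.32 to 1.92. Among tested genes, 2 of 5 on the macrophage list and 2 of 3 on the adipocyte list were lower, and 0 were higher on either. Over all genes tested, 21.0% were higher and 20.0% lower. On the lymphocyte and endothelial lists 0 were called. Most fibroblast markers rose: 5 were higher and 1 was lower of 6 tested. On this list 5 of 8 were above background in ID8G cells and 6 in GO2 cells, their summed level was 6.16 and 6.10 in ID8G cells and 7.23 and 7.23 in GO2 cells, and Col1a1, a collagen of connective tissue, rose by 4.69. Fewer cells of a type and less RNA per cell cannot be told apart in such bulk samples, and the part of these markers in the values of the ribosomal protein genes was not tested.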

How the data were processed

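Total RNA was extracted with TRIzol from 2 samples each of ID8G and GO2 cells, labelled with Cy3 and hybridized to Agilent whole-genome mouse arrays. The authors' deposited scanner output gives linear spot intensity after background subtraction in Feature Extraction 11.5.1.1, before any scaling across arrays, with other marks for outlier spots and spots well above background. A second deposited table has the authors' log2 values, scaled to the 75th percentile and centered per probe in GeneSpring, and was used as 1 alternative only. Of the per-sample columns, 0 were left unused.

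Outlier spots were left out and spots of a probe averaged, each array's 75th percentile over probes was subtracted on the log2 scale, and limma 3.58.1 in R 4.3.3 was run without covariates. Tested probes were well above background in both samples of ID8G, of GO2 or of both, with Benjamini-Hochberg adjustment over all 28370, at a threshold of 0.05. The 75th percentiles were 627 to 675 intensity units, 27507 to 28876 probes per array were well above background, and 0 spots were saturated. With 2 arrays per line their number limits the precision. Genes were named by RefSeq accession through a table for GRCm38.p6, which named 32989 probes. Each member probe had 1 or 10 spots. Probe sequences were not used here, so near-identical copies and processed pseudogenes may share a signal. A gene's value is that of its brightest tested probe.

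Named genes were the members that passed with the largest differences, all like genes, the members of fixed role lists, members not tested, Rplp0, Rpl13a, Rps6 and Rps18, and from each other list the 3 called genes with the largest differences; others are said to be chosen later. Some genes that this rule names are not reported here, in the text or the figures, though the counts include them. The members and lists were chosen with earlier results of these data known. The fit was tested on simulated data. Alternatives were other background corrections, scalings, filters and tests, each array left out, and the replicate number as a block. Figures used matplotlib 3.10.9 in python 3.11.15.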

Additional observations from a re-analysis of the deposited data

How the results depend on the processing

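The 11 member probes that were lower passed again under median centering, spike-in scaling, normexp, the deposited table and the intensity trend. Median centering and spike-in scaling shift each array by 1 constant and here moved all probes downward. The deposited table has the same percentile scaling, so passing again in these settings adds little. Under quantile normalization 5 of the 11 passed. When any 1 array was left out fewer passed, among the members and over all probes. Counts of lower member probes follow, with the share of all probes lower in brackets. They were 17 (18.4%) with normexp on median pixel intensities, 5 (19.4%) with quantile normalization and 36 (33.6%) with spike-in scaling. Without the filter on dim probes the count was 0 (3.37%), with an intensity trend 42 (24.1%) and at an unadjusted p 24 (25.7%). The trend and the unadjusted p each had 2 members higher, beside 21.2% and 22.5% of all probes. Under the trend the share of the 145 members that were lower was above that of all probes. By the methods' t-test after Benjamini-Hochberg 0 were lower (0.011%), and at 2-fold 0 were lower (3.34%), with 0 higher in both. With the replicate number as a block the count of lower members was 7 (15.6%), with 1 higher, beside 14.1% of all probes. Deviations of same-numbered arrays correlated with r of 0.03 over all probes, but this r cannot show a shift common to many probes. The median member probe was higher in replicate 1 of both lines, by 0.038 in ID8G and 0.068 in GO2. Whether same-numbered samples share more than a number was not tested. The median difference of the member probes was 0.016 with quantile normalization and -0.27 with spike-in scaling, and ran from -0.031 to -0.101 when 1 array was left out. The Rps24 probe was called in every setting but the methods' t-test, 2-fold and the fit on 1 probe per gene, in which it was not used. Of 797 values of named probes under these settings, 692 kept their direction and side of the threshold, 42 lost the call, 16 gained it and 47, in 21 genes, changed sign, of which 0 passed before or after. Under quantile normalization these were Rpl12 0.011, Rpl19 0.067, Rpl35 0.00013, Rpl36a 0.027, Rpl37rt 0.034, Rpl4 0.070, Rps10 0.027, Rps26 0.036 and Rps6 0.061. Under spike-in scaling they were Rpl11 -0.166, Rpl22 -0.201, Rpl36al -0.204, Rpl39 -0.197, Rplp1 -0.201, Rplp2 -0.177, Rps19bp1 -0.169, Rps2 -0.160, Rps27l -0.167, Rps28 -0.135 and Rps9 -0.176. With normexp they were Rpl36al -0.023, Rpl39 -0.020, Rplp1 -0.0042 and Rps19bp1 -0.015. With median centering they were Rpl22 -0.023, Rpl36al -0.026, Rpl39 -0.019 and Rplp1 -0.024. With the percentile over spots they were Rpl22 -0.0099, Rpl36al -0.013, Rpl39 -0.0057 and Rplp1 -0.010, and with outlier spots kept Rpl22 was -0.0045. With 1 array left out, values ran from -0.056 to 0.011 for Rpl12, -0.035 to 0.049 for Rpl22, -0.028 to 0.035 for Rpl36al, -0.026 to 0.048 for Rpl39, -0.117 to 0.032 for Rpl7l1, -0.023 to 0.036 for Rplp1, -0.047 to 0.017 for Rps10 and -0.039 to 0.116 for Rps19bp1. Scaling to the percentile over all spots was chosen after seeing the data and gave 13 lower, beside 20.3% of all probes. A block for slide or scan was not run, because all arrays shared 1 slide and 1 scan. All tested member probes were well above background on all 4 arrays.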
